A study of Mus musculus with 37 samples.

Results

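*Cirbp* and *Rbm3*, which encode cold-inducible RNA-binding proteins, and 7 heat shock genes (*Hspa1a*, *Hspa1b*, *Hspa8*, *Hsp90aa1*, *Hsph1*, *Hspb1* and *Dnajb1*) were followed in hippocampal RNA of single mice. The members were all probes that the platform annotation assigned to these 9 symbols. There were 8 such probes of 6 genes among the 24620 probes of the array, which cover 15967 gene symbols. Heat shock genes had 5 of them, and *Cirbp* and *Rbm3* had 3. *Hspa1a*, *Hspa1b* and *Hspa8* had no probe under their platform symbol and were not analysed here. The samples came from 37 female CSS15F2 mice of 3 to 4 months, an F2 cross in which C57BL/6J is the host strain and A/J the donor of chromosome 15. Genetic variation among these mice was limited to that chromosome, and no member gene with a probe lies on it. Tissue punched from the left hippocampus was pooled within a mouse, and each mouse had its own Illumina MouseRef-8 V1.1 array. The mice form 1 group with no heat, cold or other treatment in the labels, so each result below is a level with its spread or a relation over mice. In punched tissue, fewer cells of a type and less RNA per cell cannot be told apart.

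Heat shock proteins are chaperones that bind unfolded or newly made proteins. Their genes are switched on by heat shock factor 1 (HSF1), which binds heat shock elements, alternating copies of the units GAA and TTC, when unfolded proteins draw chaperones away from it. *Dnajb1* (Hsp40) delivers clients to Hsp70 and stimulates its ATPase, *Hsph1* (Hsp110) exchanges the nucleotide of Hsp70, *Hspb1* (Hsp27) is a small heat shock protein that holds unfolded clients without ATP, and *Hsp90aa1* is the inducible cytosolic Hsp90. *Cirbp* and *Rbm3* belong to the opposite arm of the temperature response: their RNA goes up with mild cooling and down with warming, and their proteins bind RNA and act on splicing, polyadenylation and translation. In the mouse brain *Cirbp* follows the daily rhythm of body temperature, and *Rbm3* has been tied to the upkeep of synapses after cooling.

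The promoters of the members that carried the results are shown because heat shock elements are the sequences that HSF1 binds. Each runs from 250 bases before to 50 bases after a transcription start in RefSeq (GRCm38.p6), written 5′ to 3′ on the strand of the gene. *Rbm3* and *Hsp90aa1* had no entry in the promoter table, and for *Cirbp*, *Dnajb1* and *Hsph1* the first of 2 listed starts is shown. Capitals mark any match, on either strand, to GAANNTTC or TTCNNGAA, a pair of adjoining heat shock units, and to TCCCCGCC, an element described for the cold response of the human *CIRBP* gene.
Cirbp, chr10:80167589-80167888, plus strand: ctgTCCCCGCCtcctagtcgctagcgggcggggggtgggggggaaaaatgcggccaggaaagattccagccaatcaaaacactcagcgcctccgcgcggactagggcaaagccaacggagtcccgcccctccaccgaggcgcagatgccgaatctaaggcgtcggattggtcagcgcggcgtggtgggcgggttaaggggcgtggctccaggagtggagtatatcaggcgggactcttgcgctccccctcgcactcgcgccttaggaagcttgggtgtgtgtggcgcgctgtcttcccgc
Dnajb1, chr8:83607925-83608224, plus strand: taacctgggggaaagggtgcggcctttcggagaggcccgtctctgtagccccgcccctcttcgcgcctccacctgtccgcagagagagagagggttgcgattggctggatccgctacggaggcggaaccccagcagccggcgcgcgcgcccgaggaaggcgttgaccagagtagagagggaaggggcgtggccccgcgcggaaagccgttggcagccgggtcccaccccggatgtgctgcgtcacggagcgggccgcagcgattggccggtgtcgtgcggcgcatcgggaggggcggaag
Hspb1, chr5:135887669-135887968, plus strand: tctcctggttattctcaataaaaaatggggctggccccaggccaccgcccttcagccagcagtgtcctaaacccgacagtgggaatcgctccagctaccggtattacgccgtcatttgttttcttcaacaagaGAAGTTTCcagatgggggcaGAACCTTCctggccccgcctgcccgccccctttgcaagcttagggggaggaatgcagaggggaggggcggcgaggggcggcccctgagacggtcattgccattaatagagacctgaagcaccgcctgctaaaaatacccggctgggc
Hsph1, chr5:149636266-149636565, minus strand: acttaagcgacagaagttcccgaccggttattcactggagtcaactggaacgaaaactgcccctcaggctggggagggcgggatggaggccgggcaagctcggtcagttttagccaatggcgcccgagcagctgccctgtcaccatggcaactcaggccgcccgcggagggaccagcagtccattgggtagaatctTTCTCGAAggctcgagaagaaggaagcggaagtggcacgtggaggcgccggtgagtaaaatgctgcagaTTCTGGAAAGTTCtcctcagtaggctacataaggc
*Hsph1* held 3 pairs of heat shock units, the first bases of which lie at -54, 15 and 20 relative to the start (the first transcribed base counted as 0), and the last 2 overlap to form a run of 3 units. *Hspb1* held 2 pairs, at -117 and -97. Neither the *Cirbp* nor the *Dnajb1* window held a pair, and *Cirbp* held the cold element once, at -247. The windows of the starts not shown differed in this: that of *Cirbp* held no cold element and that of *Dnajb1* held 1, at 34. Among all 32851 promoters of this length in the table, 15.1% held a pair of heat shock units, 0.603% a run of 3 (GAANNTTCNNGAA or its complement) and 5.38% the cold element. A match is a description of letters, not evidence of binding.

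The number of probes detected above background (detection *p*-value under 0.01) ranged from 5281 to 10724 per array, with a median of 8704, and the Pearson correlation between arrays from 0.79 to 0.99. The arrays lay on 13 BeadChips, the carriers on which arrays are scanned together, and the chip numbers form a set of 26 and a set of 11 arrays. On the BeadChip with 6 arrays, few probes were detected (5281 to 9292, median 6676) against 6560 to 10724 (median 8898) on the other 31 arrays. Of the hippocampal neuron markers, 10 of 15 probes were detected on at least 19 arrays, against 5 of 9 thalamic, 3 of 6 choroid plexus and 2 of 3 erythroid probes, which neighboring tissue or blood could bring.

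*Cirbp* (chromosome 10) was detected on all 37 arrays, with a deposited signal from 47.2 to 366.8 and a median of 156.2. Its normalized log2 level ran from 6.47 through a median of 7.55 to 9.0, with a mean of 7.61 ± 0.64 (SD, n = 37), a range of 5.80-fold. This SD was above that of 81.2% of the 8541 detected probes. With median centring of the arrays as the sole scaling, the SD was 0.57 and above that of 30.3% of the probes. The highest quantile-normalized levels were in mice 43 (9.0), 75 (8.86) and 151 (8.70), and the lowest in mice 153 (6.47), 57 (6.69) and 104 (6.75). Of the 6 mice with the highest level, 4 were on the BeadChip of 6 arrays, where *Cirbp* ranged from 7.20 to 9.0 (median 8.45) against 6.47 to 8.86 (median 7.47) on the others. Of the 4 mice, 20, 86 and 61 had deposited signals of 94.3, 75.1 and 114.3, below the median of 156.2, and mouse 43 had 320.3. The arrays of mice 20, 86 and 61 had 5631, 5281 and 6205 detected probes.

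*Rbm3* (X chromosome) was detected on 36 arrays, with a signal from 22.5 to 1182 and a median of 167.0. Its log2 level ran from 6.78 through 7.78 to 9.10, with a mean of 7.81 ± 0.68 (SD, n = 37). The spread was wider than that of 84.9% of the detected probes. Mice 43 (9.10) and 75 (8.95) were highest, as for *Cirbp*, followed by mouse 126 (8.92), which was among the lower mice for *Cirbp* (7.17). Mouse 86, among the highest for *Cirbp* (8.49), had the lowest *Rbm3* level. Its array had the fewest detected probes (5281), and *Rbm3* was not detected on it. The array of mouse 126 had the most detected probes (10724). In the deposited signal *Cirbp* ran the other way, with 75.1 in mouse 86 and 351.1 in mouse 126. Another *Rbm3* probe was detected on 1 array only and was not well above background on the other 36, so that it gives no level of *Rbm3*.

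The heat shock probe *Dnajb1* (chromosome 8) varied little. It was detected on all arrays, with a signal from 421 to 4139 and a median of 1759. The log2 level ran from 10.30 through 10.79 to 11.02 (mean 10.74 ± 0.19, SD, n = 37), a range of 1.65-fold, and only 1.885% of the detected probes had a smaller SD. The lowest mice were 75 (10.30), 31 (10.38) and 20 (10.40), and mouse 75 was among the 3 highest for *Cirbp*. With median centring of the arrays as the sole scaling, the SD was 0.70 and above that of 54.0% of the probes.

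*Hsph1* (chromosome 5) was detected on all arrays with a signal from 702.5 to 8760 and a median of 2697. On the log2 scale it ran from 10.39 in mouse 29 through 11.52 to 12.12 in mouse 126, with a mean of 11.46 ± 0.35 (SD, n = 37). *Hspb1* (chromosome 5) was dimmer, with a signal from 58.4 to 307.5 and a median of 130, and was detected on all arrays too. Its log2 level ran from 6.28 in mouse 100 through 7.51 to 8.68 in mouse 31, with a mean of 7.40 ± 0.59 (SD, n = 37), so that it spread over 5.28-fold and *Hsph1* over 3.31-fold. The deposited *Hspb1* signal was 136.9 in mouse 100 (10639 detected probes) and 109.9 in mouse 31 (6821 detected probes). With median centring as the sole scaling these 2 mice were at 7.07 and 7.21. The *Hspb1* SD was then 0.41 and above that of 10.1% of the detected probes, in place of 75.6%. Both *Hsp90aa1* probes stayed near background: one was detected on 6 arrays (log2 4.43 to 5.62) and the other on 0. Their values bear on no level of Hsp90 RNA.

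Before the members were set against each other, each was set against the number of detected probes on its array, a measure of how much of the array gave signal. *Hspb1* and *Cirbp* were lower, and *Dnajb1* and *Rbm3* higher, on arrays with more detected probes. For *Hspb1*, *r* was -0.81 (permutation *p* = 1e-05, the smallest that 100000 permutations can give; Spearman's rho -0.84, permutation *p* = 1e-05), with a log2 slope of -0.34 ± 0.042 (SE) per 1000 probes. For *Cirbp*, *r* was -0.71 (permutation *p* = 1e-05; rho -0.70, permutation *p* = 1e-05) and the slope -0.33 ± 0.053. Leaving out the 2 arrays farthest from the median number gave -0.78 and -0.66, and both had the same direction within the set of 26 arrays (-0.80 and -0.75) and the set of 11 (-0.86 and -0.54). *Dnajb1* had *r* = 0.56 (permutation *p* = 2.9e-04; rho 0.46, permutation *p* = 0.0049), 0.49 without those 2 arrays, 0.63 within the 26 arrays and 0.09 within the 11. *Rbm3* had *r* = 0.35 (permutation *p* = 0.031; rho 0.42, permutation *p* = 0.0099), 0.31 without them, and 0.29 and 0.84 within the sets. *Hsph1* showed no detectable relation (*r* = 0.05, permutation *p* = 0.77; rho 0.07, permutation *p* = 0.67). These are 5 relations, and the Benjamini-Hochberg adjusted *p*-values of limma over all 8541 probes were 5.5e-09 for *Hspb1*, 1.0e-06 for *Cirbp*, 0.0034 for *Dnajb1*, 0.036 for *Rbm3* and 0.80 for *Hsph1*. The same fit called 37.6% of all probes higher and 29.4% lower with the number of detected probes, so the members' 4 calls are near the background. With median centring alone all 5 members were higher on arrays with more detected probes, *Cirbp* (*r* = 0.34) and *Hspb1* (*r* = 0.42) included, and 98.4% of the probes called were higher in place of 56.1%.

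**Figure D1:**
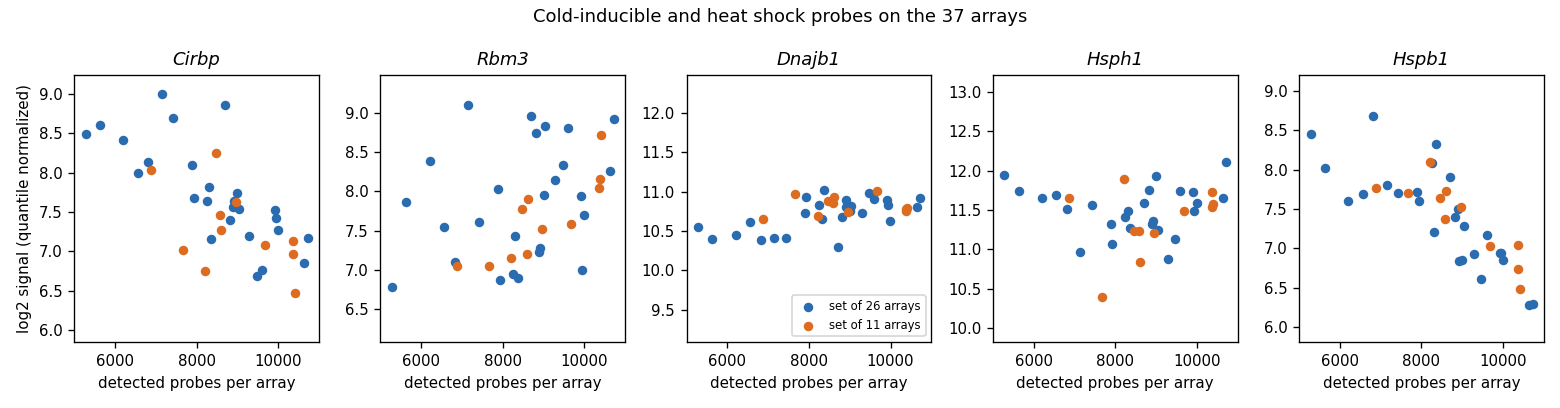
Each point is 1 of 37 arrays, with the number of detected probes on the x axis and the quantile-normalized log2 signal of 5 member probes on the y axes, which all span the same number of log2 units. *Cirbp* is at 8.49 on the array with 5281 detected probes and at 7.17 on that with 10724, *Hspb1* falls alongside it, and *Dnajb1* stays within 10.30 and 11.02.

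The question behind pairing the members was whether the heat shock RNAs run opposite to the cold-inducible RNAs from mouse to mouse. Of the 6 such pairs, *Cirbp* with *Dnajb1* and *Rbm3* with *Hspb1* did so past the threshold in the quantile-normalized values, *Cirbp* with *Hspb1* ran the same way, and both opposite relations turned positive with median centring. In the quantile-normalized values the 2 cold-inducible genes showed no detectable relation to each other, and the 3 heat shock probes did not rise together. With median centring all 10 pairs of the 5 detected probes had a positive *r*, from 0.24 to 0.69. The 10 pairs of the 5 detected probes were tested over the 37 mice, each with *r* and rho by permutation and with the slope on the first-named probe in limma, adjusted over all probes.

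*Cirbp* and *Dnajb1* had *r* = -0.74 (permutation *p* = 1e-05) and rho -0.63 (permutation *p* = 6e-05), and *Dnajb1* was lower by a log2 slope of -0.22 ± 0.045 (SE) per unit of *Cirbp* (adjusted *p* = 5.4e-05, limma). After quantile normalization the 6 mice highest for *Cirbp* (43, 75, 151, 20, 86 and 61) all had *Dnajb1* at 10.55 or less, below its median of 10.79. In the fit on *Cirbp*, 28.4% of the 8540 other probes were higher and 34.4% lower with it at an adjusted *p* under 0.05, and 5.49% of them had a lower *r* than *Dnajb1*. Without the 2 mice farthest from the *Cirbp* median, *r* was -0.66 (adjusted *p* = 0.0012), without the BeadChip of 6 arrays -0.64 (adjusted *p* = 0.0048), and with BeadChip as a factor -0.57 (adjusted *p* = 0.045). It was -0.84 within the set of 26 arrays (adjusted *p* = 1.2e-04) and -0.08 within the set of 11 (adjusted *p* = 0.95), where *Dnajb1* ranged only from 10.65 to 11.01. Given the number of detected probes the partial *r* was -0.59 (adjusted *p* = 0.017); that fit called 12% of all probes higher and 10.9% lower with *Cirbp*, and 1.64% of probes had a lower partial *r*. With median centring and no quantile normalization *r* was 0.42 (adjusted *p* = 0.018), in a fit where the median *r* of all probes with *Cirbp* was 0.41 in place of -0.07 and 100% of the calls were higher in place of 45.2%. Relative to that median, *Dnajb1* lay at the level of the typical probe.

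**Figure D2:**
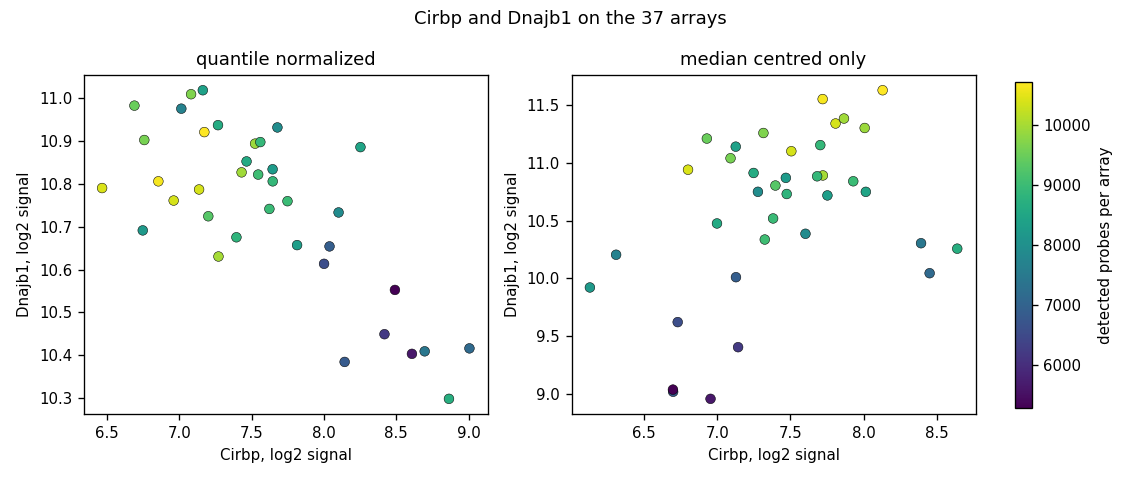
Each point is 1 of 37 arrays, with *Cirbp* on the x axis and *Dnajb1* on the y axis in log2 signal, colored by the number of detected probes; values are quantile normalized on the left and only median centred on the right. On the left *r* is -0.74 and the dark points, arrays with few detected probes, lie at high *Cirbp* and low *Dnajb1*; on the right *r* is 0.42 and the dark points lie at the bottom.

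*Cirbp* and *Rbm3* had *r* = -0.02 (permutation *p* = 0.89) and rho -0.12 (permutation *p* = 0.48), with an adjusted *p* of 0.91. The log2 slope of *Rbm3* on *Cirbp* was -0.02 ± 0.17 (SE). Without the 2 farthest mice, 43 and 75, which are the highest for both genes, *r* was -0.31 (adjusted *p* = 0.087). The partial *r* given the number of detected probes was 0.35 (adjusted *p* = 0.090), and with median centring *r* was 0.53 (adjusted *p* = 0.0020), near the median *r* of 0.41. Within the sets it was -0.01 and -0.38, with adjusted *p*-values of 0.98 and 0.37.

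*Cirbp* and the small heat shock probe *Hspb1* were high in the same mice, with *r* = 0.56 (permutation *p* = 2.8e-04) and rho 0.54 (permutation *p* = 5.8e-04; adjusted *p* = 4.7e-04). Each of them fell with the number of detected probes, and given that number the partial *r* was -0.03 (adjusted *p* = 0.92). *Cirbp* and *Hsph1* had *r* = 0.06 (permutation *p* = 0.73; adjusted *p* = 0.78) and rho 0.02 (permutation *p* = 0.91). So of the 3 heat shock probes, *Cirbp* went against 1, with 1 and with neither direction for the last, beside a background of 28.4% and 34.4% of probes called.

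*Rbm3* stood opposite to *Hspb1*, with *r* = -0.45 (permutation *p* = 0.0054) and rho -0.44 (permutation *p* = 0.0073; adjusted *p* = 0.020). The fit on *Rbm3* called 14.8% of probes higher and 14.2% lower. With median centring *r* was 0.24 (adjusted *p* = 0.165). The partial *r* of this pair was -0.29 (adjusted *p* = 0.15), that within the 26 arrays -0.38 (adjusted *p* = 0.14) and that within the 11 arrays -0.79 (adjusted *p* = 0.045). With *Dnajb1*, *Rbm3* had *r* = -0.17 (permutation *p* = 0.32; rho -0.13, permutation *p* = 0.44; adjusted *p* = 0.51), and the partial *r* was -0.48 (adjusted *p* = 0.036) in a fit that called 15.7% of probes higher and 20.6% lower. With *Hsph1* its *r* was 0.15 (permutation *p* = 0.39; rho 0.16, permutation *p* = 0.35; adjusted *p* = 0.54).

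The heat shock probes did not move as a group. *Dnajb1* and *Hspb1* had *r* = -0.42 (permutation *p* = 0.0098; rho -0.34, permutation *p* = 0.041; adjusted *p* = 0.015) and a partial *r* of 0.07 (adjusted *p* = 0.78). The fit on *Dnajb1* called 33.9% of probes higher and 25.5% lower, and 23.8% and 17.9% given the number of detected probes. *Dnajb1* and *Hsph1* had *r* = -0.30 (permutation *p* = 0.071; rho -0.38, permutation *p* = 0.020; adjusted *p* = 0.11), which did not pass the threshold over all probes; the partial *r* was -0.40 (adjusted *p* = 0.039). *Hsph1* and *Hspb1* had *r* = -0.13 (permutation *p* = 0.45; rho -0.09, permutation *p* = 0.61; adjusted *p* = 0.65). With median centring alone all 10 pairs had a positive *r*, from 0.24 to 0.69. The number of detected probes and the BeadChip moved with the members in these ways, and their part in the relations was not tested beyond the values given.

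**Figure D3:**
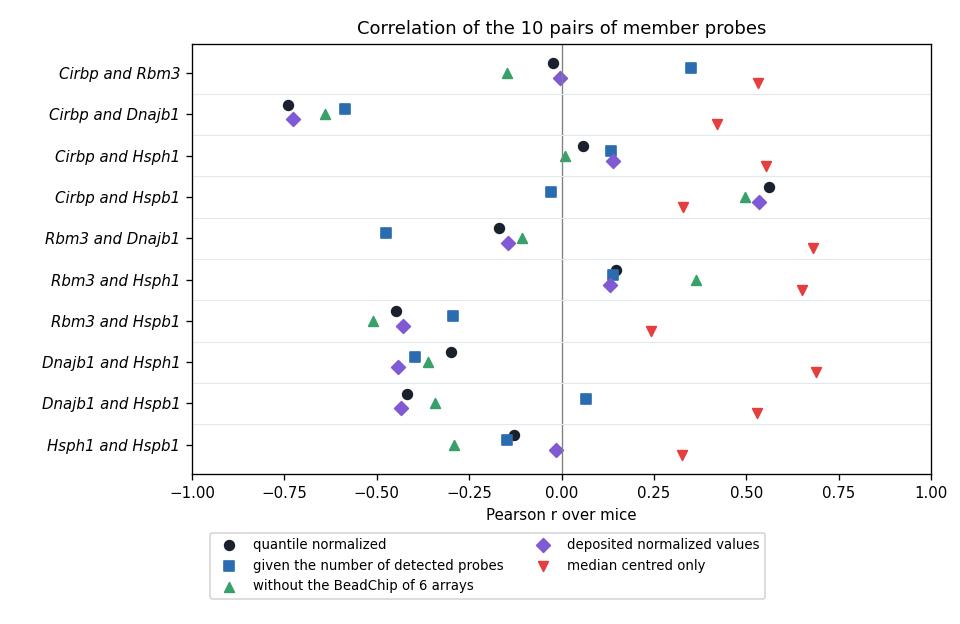
Pearson *r* over mice on the x axis for the 10 pairs of member probes on the y axis, with 1 symbol per way of processing. The red triangles, values centred on the median of each array without quantile normalization, lie to the right of 0 for every pair, and *Cirbp* with *Dnajb1* lies between -0.74 and -0.59 under the other 4.

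Other genes of the chaperone system were followed as lists. Of 22 detected probes for other cytosolic chaperones and co-chaperones, 12 were lower and 6 higher with *Cirbp*, beside 34.4% of all probes lower and 28.4% higher (median *r* -0.41, against -0.07 over all 8540 probes). The lowest were *Cct3* (*r* = -0.82), a subunit of the TRiC chaperonin, *Stip1* (*r* = -0.81), which links Hsp70 to Hsp90, and *Dnaja4* (*r* = -0.80), an Hsp40. Both detected small heat shock probes were higher with *Cirbp*, *Hspb8* (*r* = 0.75) and *Cryab* (*r* = 0.47). Of the 2 probes related to heat shock factors, *Hsbp1*, which binds HSF1 trimers, was lower (*r* = -0.65). In mitochondria 2 of 4 chaperone probes were lower and 0 higher, led by *Dnaja3* (*r* = -0.78). In the endoplasmic reticulum 4 of 9 were lower, led by *Creld2* (*r* = -0.83) and *Herpud1* (*r* = -0.82), and 2 higher. On arrays with more detected probes 5 of these 9 were higher, *Creld2* and *Herpud1* (both *r* = 0.81) included. The 2 lower ones were *Sdf2l1* (*r* = -0.82) and *Hyou1* (*r* = -0.71), and that fit called 37.6% of all probes higher and 29.4% lower. Given the number of detected probes, 4 of the 22 cytosolic probes were lower and 2 higher, near the background of 10.9% and 12% (median *r* -0.12, against -0.01 over all probes), with *Cct3* at -0.60, *Stip1* at -0.59 and *Hspb8* at 0.50, while *Cryab* was at -0.04 (adjusted *p* = 0.89).

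With *Dnajb1*, 11 of the 22 cytosolic probes were higher and 4 lower, beside 33.9% and 25.5% of all probes (median *r* 0.36, against 0.09 over all probes). *Stip1* (*r* = 0.81) and *Bag1* (*r* = 0.80), a nucleotide exchange factor of Hsp70, were highest with it, and *Chordc1* (*r* = -0.77), an Hsp90 co-chaperone, lowest. Both probes related to heat shock factors were higher, *Hsf4* with *r* = 0.62, and both small heat shock probes lower. Given the number of detected probes 7 cytosolic probes were higher and 3 lower, beside 23.8% and 17.9% of all probes (median *r* 0.21, against 0.05), with *Bag1* at 0.73, *Stip1* at 0.72 and *Chordc1* at -0.67. *Cirbp* and *Dnajb1* share the 37 arrays, so the fits are not independent of each other. With median centring alone, 99% of the calls in the fit on *Dnajb1* were higher in place of 57.1%, 99.6% in place of 51% for *Rbm3*, 99.9% in place of 47.8% for *Hsph1* and 100% in place of 46.2% for *Hspb1*, so that no direction of a list is free of the scaling.

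The fit on *Hsph1* called 6.89% of probes higher and 7.51% lower, and 3 of the 22 cytosolic probes higher and 3 lower (median *r* 0.01, against -0.04). *Dnaja2* (*r* = 0.68) and the chaperonin subunit *Cct8* (*r* = 0.63) were higher with it, and so were *Hspd1* (*r* = 0.56), the mitochondrial Hsp60, and *Hsp90b1* (*r* = 0.70), the Hsp90 of the endoplasmic reticulum. At a given number of detected probes these were at 0.70, 0.63, 0.57 and 0.77. Within the set of 26 arrays, and without the 2 mice farthest from the *Hsph1* median (29 and 24), the fit called 0 and 220 probes in place of 1229. At an unadjusted *p* under 0.05 limma had 1111 probes within the 26 arrays. The count went up to 2605 with the number of detected probes as a covariate, to 7892 with median centring and to 2949 with both.

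*Hspb1* was high with both other small heat shock probes, *Hspb8* (*r* = 0.69) and *Cryab* (*r* = 0.63), and 9 of 22 cytosolic chaperone probes were lower with it and 6 higher (median *r* -0.21, against -0.06). *Tcp1* (*r* = -0.80), another TRiC subunit, and *Dnaja4* (*r* = -0.77) were lowest. The fit called 27.8% of probes higher and 32.4% lower. With the number of detected probes in the fit it called 0 probes in either direction, and *Hspb8* was at 0.28 (adjusted *p* = 0.38) and *Cryab* at 0.18 (adjusted *p* = 0.60).

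The fit on *Rbm3* called 14.8% of all probes higher and 14.2% lower. Of the 4 mitochondrial chaperone probes, *Hspa9* (*r* = 0.69), the mitochondrial Hsp70, and *Hspd1* (*r* = 0.46) were higher, and of the 9 probes of the endoplasmic reticulum 3 were higher and 2 lower, led by *Pdia3* (*r* = 0.63), a disulfide isomerase. Of the 22 cytosolic probes 5 were higher and 3 lower (median *r* -0.02, against -0.04), with *Tcp1* at 0.65 and *Stub1*, a ubiquitin ligase of chaperone clients, at -0.67. *Hsbp1* was higher (*r* = 0.53), opposite to its direction with *Cirbp*. With that number as a covariate *Hspa9* was at 0.65, *Pdia3* at 0.60, *Tcp1* at 0.66 and *Stub1* at -0.625.

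**Figure D4:**
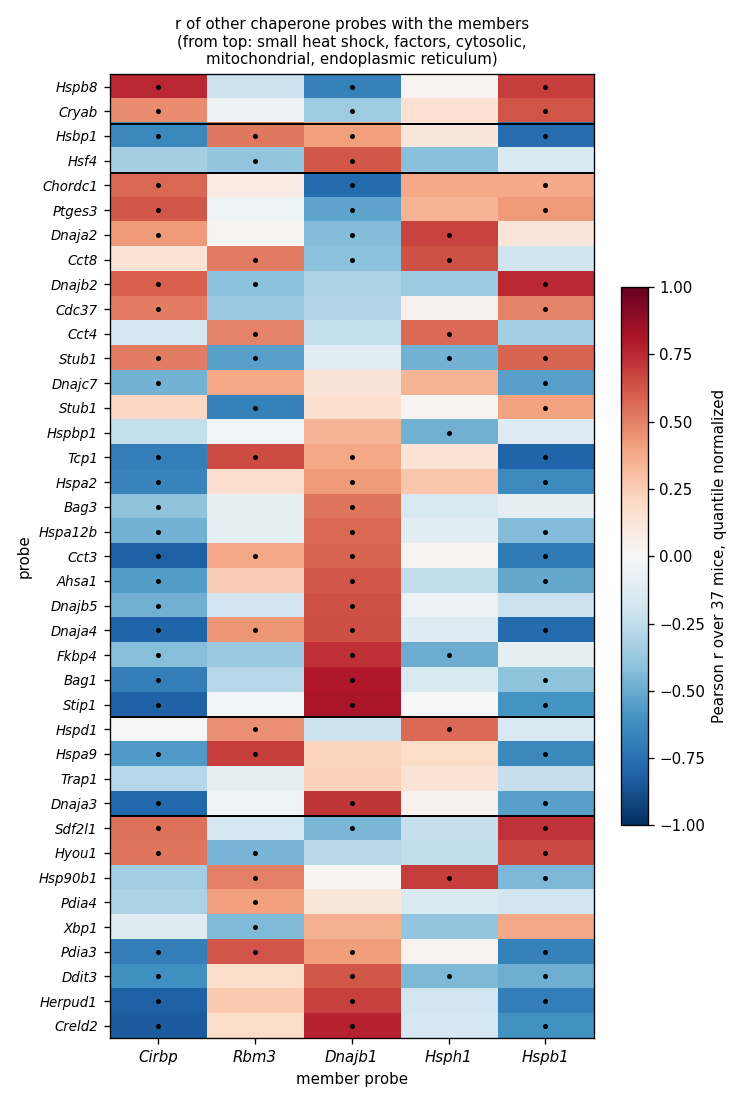
Pearson *r* over 37 mice (color) of 39 detected chaperone probes, in rows by list, with each of 5 member probes, in columns; dots mark the 107 cells with an adjusted *p* under 0.05. In the *Cirbp* and *Dnajb1* columns *Stip1* is at -0.81 and 0.81 and *Hspb8* at 0.75 and -0.68.

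A mixed list of other RNA-binding proteins and of cold shock domain proteins did not follow *Cirbp* or *Rbm3* as a group. Of 17 detected probes, 6 were lower and 3 higher with *Cirbp*, beside 34.4% and 28.4% of all probes (median *r* -0.16, against -0.07). Both probes of *Ybx1*, the main cold shock domain protein, were lower (*r* = -0.84 and -0.85), and so was *Rbm10* (*r* = -0.79), a splicing regulator. With *Rbm3*, 5 were higher and 1 lower, beside 14.8% and 14.2% of all probes (median *r* 0.05, against -0.04). *Rbm39* (*r* = 0.63) and *Srsf5* (*r* = 0.60), both splicing factors, were higher and *Csdc2* (*r* = -0.66), a cold shock domain protein, lower. *Rbm39* and *Srsf5* each had another tested probe, for which no *r* is given here. *Dnajb1* had 5 higher and 2 lower, beside 33.9% and 25.5% of all probes (median *r* 0.06, against 0.09). *Ybx1* (*r* = 0.81) and *Carhsp1* (*r* = 0.79) were highest, both of them cold shock domain proteins. Both *Ybx1* probes were higher on arrays with more detected probes (*r* = 0.83 and 0.78). Given that number, 3 of the 17 probes were lower and 2 higher with *Cirbp*, beside 10.9% and 12% of all probes. *Rbm3* then had 3 lower and 4 higher (20.6% and 15.7% of all), and *Dnajb1* 4 and 6 (17.9% and 23.8%).

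Markers of cell types moved with the members as well. Of 8 microglial probes, 6 were higher and 1 lower with *Cirbp*, beside 28.4% and 34.4% of all probes (median *r* 0.62, against -0.07), with *Tyrobp* at 0.82, *C1qa* at 0.80 and *Cx3cr1*, also a microglial gene, at -0.80. Given the number of detected probes 5 were higher and 1 lower, beside 12% and 10.9% of all probes (median *r* 0.43), with *Tyrobp* at 0.64, *C1qa* at 0.53 and *Cx3cr1* at -0.53. Of 10 hippocampal neuron probes, 6 were lower and 2 higher with *Cirbp* (median *r* -0.40), with *Neurod2* at -0.79 and *Nptx1* at -0.70. Given the number of detected probes, 3 of the 10 were lower and 0 higher (median *r* -0.19). *Dnajb1* had 6 of 8 microglial probes lower and 1 higher (*Tyrobp* -0.75, *Cx3cr1* 0.73) and 7 of 10 neuronal probes higher and 2 lower (*Neurod2* 0.83, *Camk2a* 0.67), beside 33.9% of all probes higher and 25.5% lower. Given the number of detected probes, *Dnajb1* had 2 microglial probes lower and 1 higher, and 7 neuronal probes higher and 0 lower. That fit called 23.8% of all probes higher and 17.9% lower. Beside 27.8% of all probes higher and 32.4% lower, *Hspb1* was high with both detected erythroid probes, *Alas2* (*r* = 0.76) and *Hba-a1* (*r* = 0.74), and with 4 of 6 endothelial probes, *Cldn5* (*r* = 0.71) the highest, while *Flt1* (*r* = -0.64) was among the 2 lower ones. At a given number of detected probes these were at 0.27, 0.26, 0.56 and 0.03, none past the threshold. *Rbm3* was higher with 3 and lower with 1 of 11 oligodendrocyte probes, beside 14.8% and 14.2% of all probes (median *r* 0.12, against -0.04). *Mog* (*r* = 0.70) and *Ugt8a* (*r* = 0.64) were among the higher ones, and most probes of that list were not called. Of 8 microglial probes, 0 were called with *Rbm3* in either direction. Both detected erythroid probes were also higher with *Cirbp* and lower with *Dnajb1*, whereas the called microglial and endothelial probes ran both ways with *Cirbp* and with *Hspb1*. With the number of detected probes in the fit, 0 erythroid probes were called with *Cirbp* or with *Dnajb1*. The part of cell composition in the members' relations was not tested.

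The probes most like each member over the 37 mice, among all detected probes with a platform gene, are given as a description. For *Cirbp* they were *Dusp15* (*r* = 0.89) and *Scrg1*, *Polr2h*, *Ppil3* and *Hypk* (all *r* = 0.88). For *Rbm3* they were *Psmb7* (*r* = 0.89), *Rab18* and *Cnih1* (both 0.88), *Trappc2* (0.86) and *Etfa* (0.85). *Dnajb1* was closest to *Rab11b* (0.88) and to *Suds3*, *Csnk1g2*, *Nfix* and *Atp6v0a1* (all 0.87), *Hsph1* to *Ppp2r5e* (0.86), *Aftph* (0.82), *Clic4* (0.81), *Slu7* and *Armh4* (both 0.80), and *Hspb1* to *Med9* and *Sema5b* (both 0.85), *Abhd14a* (0.84), *B9d2* and *Slc8b1* (both 0.83). No gene was shared between these 5 groups of 5.

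No member passed the threshold between the chip sets, which does not show that the sets were equal. *Cirbp* had the widest gap, -0.45 ± 0.24 (SE, log2) in the set of 11 against the set of 26 (means 7.28 and 7.75), with an unadjusted limma *p* of 0.062 and an adjusted *p* of 0.78. The adjusted *p*-values of the others were 0.78 to 0.997. Over all 8541 probes limma with BeadChip as a random block called 0 (0%) at an adjusted *p* under 0.05 and had 419 at an unadjusted *p* under 0.05, and without the block 0 and 796. Between the BeadChips with at least 2 arrays (36 mice), 26 probes (0.304%) differed at an adjusted *p* under 0.05, none of them a member. The share of variance lying between BeadChips was 0.52 for *Dnajb1*, 0.44 for *Cirbp*, 0.32 for *Hspb1*, 0.31 for *Hsph1* and 0.13 for *Rbm3*, against a median of 0.37 over all probes, with adjusted *p*-values from 0.42 to 0.97.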

How the data were processed

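Hippocampal RNA of 37 mice was measured on 1 bead array each. The deposited signal table holds intensity values that the authors exported from BeadStudio after background subtraction, 30.8% of them below 0, beside a deposited detection score per probe, read here as 1 minus the detection *p*-value. The deposited normalized table holds log2 values from the variance-stabilizing transform and robust spline normalization of the authors (lumi), and was used as an alternative. Its 24613 rows were linked one to one to the signal table by ranks within arrays (largest rank distance 0.000963, the next probe at least 157 times farther), which gave 20984 probes 1 platform symbol, 1 several and 3628 none.

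Signals were corrected with nec of limma 3.58.1 (R 4.3.3, offset 16), quantile normalized and put on the log2 scale. The 8541 probes with a detection *p*-value below 0.01 on 19 or more of the arrays were tested. Slopes on each member probe over the 37 mice were fitted with lmFit and eBayes and adjusted by Benjamini-Hochberg over all tested probes, with a threshold of 0.05. Correlations between members had 100000 two-sided permutations (numpy 2.4.6). A mixture fit (scikit-learn 1.9.0, BIC gain over 10) split none of the 5 tested member probes into groups of mice. It split one *Rbm3* and one *Hsp90aa1* probe that were not well above background, and no relation of these was tested. The slope fit, the permutation test and the mixture fit were tested on simulated data, and the other steps were not.

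Fits on *Hspa1a* or *Hspa1b* and *Hsp90aa1* had been planned. The first had no probe and the last was detected on too few arrays, so fits on *Dnajb1*, *Hsph1*, *Hspb1* and the number of detected probes were added after the data were seen. Named genes were the 5 probes of highest *r* with each reference probe, and up to 4 probes per list with the smallest adjusted *p*. A value given for a gene is that of a single probe, and *Stub1*, *Mog*, *Camk2a*, *Rbm39* and *Srsf5* each had another tested probe. Members and lists were chosen with earlier results of these data known. The alternatives were median centring, the deposited normalized values, a signal floor, stricter and no detection filters, covariates for detected probes and BeadChip, the chip sets, and leaving out mice or a BeadChip. *p*-values measure the spread between single arrays of separate mice.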

Additional observations from a re-analysis of the deposited data

How the results depend on the processing

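In the main processing 5362 probes were called with *Cirbp*, 2477 with *Rbm3*, 5074 with *Dnajb1*, 1229 with *Hsph1*, 5137 with *Hspb1* and 26 between BeadChips. For counts and for relations of the members, the values below are those that changed direction, passed or lost the threshold, or moved a count by over 1.5 times. For other named genes only changes of direction are listed, and values that lost the threshold are only counted, near the end. The cause was not tested. With median centring in place of quantile normalization, the called probes numbered 7724 with *Rbm3*, 7865 with *Dnajb1*, 7892 with *Hsph1* and 66 between BeadChips. There *r* was 0.53 for *Cirbp* and *Rbm3*, 0.42 for *Cirbp* and *Dnajb1*, 0.55 for *Cirbp* and *Hsph1*, 0.33 for *Cirbp* and *Hspb1*, 0.68 for *Rbm3* and *Dnajb1*, 0.65 for *Rbm3* and *Hsph1*, 0.24 for *Rbm3* and *Hspb1*, 0.69 for *Dnajb1* and *Hsph1*, 0.53 for *Dnajb1* and *Hspb1* and 0.33 for *Hsph1* and *Hspb1*. There *r* with the number of detected probes was 0.34 for *Cirbp*, 0.69 for *Hsph1* and 0.42 for *Hspb1*. There the log2 difference of *Hspb1* between the chip sets was 0.017. There *r* was 0.062 for *Cct3* with *Cirbp*, 0.21 for *Dnaja4* with *Cirbp*, 0.35 for *Stip1* with *Cirbp*, 0.45 for *Hsbp1* with *Cirbp*, 0.38 for *Dnaja3* with *Cirbp*, 0.12 for *Creld2* with *Cirbp*, 0.10 for *Herpud1* with *Cirbp*, 0.084 for *Ybx1* with *Cirbp*, 0.26 for *Ybx1* with *Cirbp*, 0.18 for *Rbm10* with *Cirbp*, 0.14 for *Cx3cr1* with *Cirbp*, 0.20 for *Neurod2* with *Cirbp*, 0.29 for *Nptx1* with *Cirbp*, 0.52 for *Stub1* with *Rbm3*, 0.36 for *Csdc2* with *Rbm3*, 0.64 for *Chordc1* with *Dnajb1*, 0.58 for *Tef* with *Hsph1*, 0.29 for *Tcp1* with *Hspb1*, 0.31 for *Dnaja4* with *Hspb1* and 0.49 for *Flt1* with *Hspb1*. With median centring and the number of detected probes as a covariate, chosen after seeing the data, the called probes numbered 3383 with *Cirbp*, 2949 with *Hsph1* and 1155 with *Hspb1*. There *r* was 0.46 for *Cirbp* and *Rbm3*, 0.28 for *Cirbp* and *Dnajb1*, 0.47 for *Cirbp* and *Hsph1*, 0.22 for *Cirbp* and *Hspb1*, -0.16 for *Rbm3* and *Hspb1*, 0.20 for *Dnajb1* and *Hsph1*, 0.38 for *Dnajb1* and *Hspb1* and 0.053 for *Hsph1* and *Hspb1*. There *r* was 0.10 for *Stip1* with *Cirbp*, 0.44 for *Hsbp1* with *Cirbp*, 0.18 for *Dnaja3* with *Cirbp*, 0.16 for *Chordc1* with *Dnajb1*, 0.12 for *Tyrobp* with *Dnajb1*, 0.10 for *Tef* with *Hsph1* and 0.31 for *Flt1* with *Hspb1*. With the number of detected probes as a covariate, the called probes numbered 1948 with *Cirbp*, 2605 with *Hsph1* and 0 with *Hspb1*. There *r* was 0.35 for *Cirbp* and *Rbm3*, -0.030 for *Cirbp* and *Hspb1*, -0.48 for *Rbm3* and *Dnajb1*, -0.29 for *Rbm3* and *Hspb1*, -0.40 for *Dnajb1* and *Hsph1* and 0.066 for *Dnajb1* and *Hspb1*. There the log2 difference of *Hspb1* between the chip sets was 0.14. There *r* was -0.040 for *Cryab* with *Cirbp* and 0.028 for *Flt1* with *Hspb1*. With the deposited normalized values and that covariate, chosen after seeing the data, the called probes numbered 2277 with *Cirbp*, 2709 with *Hsph1* and 0 with *Hspb1*. There *r* was 0.34 for *Cirbp* and *Rbm3*, -0.0008 for *Cirbp* and *Hspb1*, -0.48 for *Rbm3* and *Dnajb1*, -0.26 for *Rbm3* and *Hspb1*, -0.49 for *Dnajb1* and *Hsph1* and 0.093 for *Dnajb1* and *Hspb1*. There *r* was -0.060 for *Cryab* with *Cirbp* and 0.028 for *Flt1* with *Hspb1*. With the deposited normalized values alone, *r* was -0.44 for *Dnajb1* and *Hsph1*. There *r* with the number of detected probes was -0.093 for *Hsph1*. With BeadChip as a factor, *r* was -0.49 for *Dnajb1* and *Hsph1* and -0.40 for *Dnajb1* and *Hspb1*. Over probes detected on all arrays, the called probes numbered 2920 with *Cirbp*, 2780 with *Dnajb1* and 2734 with *Hspb1*. With no filter on detection, the called probes numbered 8593 with *Cirbp* and 9799 with *Hspb1*. With a signal floor and no second background correction, the log2 difference of *Hspb1* between the chip sets was 2.3e-04. Within the set of 11 arrays, the called probes numbered 0 with *Cirbp*, 326 with *Rbm3*, 0 with *Dnajb1*, 318 with *Hsph1* and 111 with *Hspb1*. There *r* was -0.076 for *Cirbp* and *Dnajb1*, -0.15 for *Cirbp* and *Hsph1*, 0.425 for *Cirbp* and *Hspb1*, 0.032 for *Rbm3* and *Dnajb1* and -0.10 for *Dnajb1* and *Hspb1*. Within the set of 26 arrays, the called probes numbered 1605 with *Rbm3* and 0 with *Hsph1*. There *r* was -0.38 for *Rbm3* and *Hspb1*. After dropping the 2 most distant mice of each fit, the called probes numbered 220 with *Hsph1*. There *r* was 0.048 for *Rbm3* and *Dnajb1* and -0.31 for *Dnajb1* and *Hspb1*. Without the BeadChip of 6 arrays, chosen after seeing the data, *r* was -0.34 for *Dnajb1* and *Hspb1*. *Hspb1* had no detectable difference between the chip sets in the main processing, so its sign carries nothing. Between the chip sets 0 probes were called by limma under all 8 settings, with 201 to 841 at an unadjusted *p* under 0.05. Over probes detected on all arrays the share of calls that were higher was 58.4% for *Cirbp*, 39% for *Rbm3*, 43.7% for *Dnajb1*, 58.6% for *Hsph1* and 60.3% for *Hspb1*. The next counts cover the genes named by rule and the members' differences between chip sets and between BeadChips. Over all alternatives 864 values kept direction and side of the threshold, 127 kept direction but lost the threshold and 34 changed direction. The 34 include those of *Hspb1* between the chip sets. *Hspb1*, *Rbm3* and *Cirbp* were dim, with deposited signals down to 58.4, 22.5 and 47.2, which limits their precision, as does 1 array per mouse. The planned fits on *Hspa1a* or *Hspa1b* and on *Hsp90aa1* were not run. No paired analysis was possible because the mice form 1 group.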
